A study of Mus musculus with 8 samples.

Results

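The miR-23, miR-27 and miR-24 miRNAs are made from a pair of paralogous gene clusters, and their probes were compared here between LSK cells that had lost Tsc1 and control LSK cells. The members were all probes whose name, without arm, copy number and form suffix, was mmu-mir-23a, mmu-mir-27a, mmu-mir-23b, mmu-mir-27b or mmu-mir-24, which made 5 of the 338 miRNA stems on the array. They comprised 6 of 433 mature names (10 of 521 probes) and 4 of 274 precursor names (4 of 300 probes). LSK cells are bone marrow cells without lineage markers that carry Kit and Sca1, the fraction in which haematopoietic stem cells and their first progeny are found.

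The KO group was 4 mice of genotype Tsc1f/f,Mx1-Cre+ and the WT group was 4 littermates of genotype Tsc1f/f,Mx1-Cre-, so the WT mice also carried the floxed alleles and differed in the absence of Cre. All were 10-week-old C57BL/6 females, and all received pIpC, 400 µg in each of 7 injections, with marrow taken 10 days after the last. Mx1-Cre is driven by an interferon-inducible promoter that pIpC switches on, and it is active in other tissues besides blood. The design text also speaks of Raptor alleles, but the genotype labels name Tsc1 alone. Each mouse gave 1 array, and the loss of Tsc1 itself is not read by these probes. Tsc1 restrains mTORC1, a kinase complex that drives cell growth when nutrients are plentiful, and by its title the study asks how mTORC1 bears on the making of miRNAs.

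Each cluster is transcribed as 1 primary transcript, from which Drosha cuts out 1 hairpin for each miRNA and Dicer then cuts the mature strands. In blood the miR-23a cluster is known as a target of the myeloid transcription factor PU.1 and, when overexpressed in mouse progenitors, favours myeloid over B-lymphoid cells. Both clusters are also abundant in endothelial and stromal cells.

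The sequences below show what the probes can and cannot tell apart. All are from RefSeq, on build GRCm38.p6 and the plus strand, and all 5 stems had hairpins there. The miR-23a cluster spans 404 bases of chromosome 8, between the protein-coding genes Nanos3 and Zswim4. The miR-23b cluster spans 792 bases of chromosome 13, inside the bounds of the protein-coding gene Aopep. In the mature sequences the capitals mark the seed, bases 2 to 8, which pairs with target mRNAs, and for miR-23b the matching stretch of its hairpin is shown, with bases 2 to 8 in capitals.
miR-23a-3p (chr8:84208563-84208583): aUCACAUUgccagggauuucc
miR-23b stretch (chr13:63300529-63300549): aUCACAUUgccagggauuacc
miR-27a-3p (chr8:84208727-84208747): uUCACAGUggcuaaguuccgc
miR-27b-3p (chr13:63300760-63300780): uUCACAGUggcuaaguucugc
miR-24-3p (chr8:84208875-84208896 and chr13:63301251-63301272): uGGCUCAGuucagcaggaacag
miR-24-1-5p (chr13:63301213-63301235): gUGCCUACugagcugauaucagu

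Counted from the 5′ end, miR-23a-3p and the miR-23b stretch differ by 1 base (U19A), and so do miR-27a-3p and miR-27b-3p (C19U). Each paralogue pair shares its seed, and the seeds of miR-23 and miR-27 differ from each other by U7G. Because probes for such near-identical strands can bind both, signals of the miR-23a and miR-23b probes, and of the miR-27a and miR-27b probes, may be shared between the clusters. How far they were shared was not tested. miR-24-3p has the same 22 bases in both clusters, so its mature signal belongs to no single cluster.

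The mir-24 hairpins, by contrast, differ outside that strand, which is why the precursor probe for mir-24-2 and the probe for the miR-24-1 5′ strand can in principle be assigned to chromosome 8 and chromosome 13. The capitals mark miR-24-3p.
mir-24-2 hairpin (chr8:84208815-84208921): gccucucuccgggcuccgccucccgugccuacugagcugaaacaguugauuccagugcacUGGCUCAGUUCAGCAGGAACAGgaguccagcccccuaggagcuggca
mir-24-1 hairpin (chr13:63301208-63301275): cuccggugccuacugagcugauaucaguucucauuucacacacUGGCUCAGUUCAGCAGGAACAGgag
The 5′ strands of both copies share only their first 16 bases in a run from the 5′ end, so the 5′ probe may still bind the miR-24-2 strand in part.

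Array brightness varied between mice. Intensities are given in units of 1000. The total per array ran between 27733 and 63877 units for mature probes and between 11344 and 20313 units for precursor probes. On each array most probes shared 1 low level, taken as background. It was 32.4 to 33.5 on samples 1 and 2 of both groups and 24.4 to 25.7 on samples 3 and 4, so differences are also given within each of these sets, which hold 2 mice of each genotype. KO 4 stood apart with 74 bright mature names, against 112 at the most, a name being bright where its log2 intensity lay more than 1 unit above background. The labels of KO 3 and KO 4 name other scanners (4001B and 4002B) than those of the other 6 arrays (4000B). The number in the name steps up by 1 at each of them, so these names may be a slip in the labels, and whether another scanner was used is not known. In these bulk samples a change in the mix of cells and a change of RNA per cell cannot be told apart.

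The labelled cell type was set against marker miRNAs. Over all 8 arrays 0 of 3 erythroid names, 1 of 17 stromal or endothelial names (miR-126-5p) and 1 of 28 non-haematopoietic names (miR-375) were bright. miR-126-5p was also the 1 bright name among the 5 megakaryocyte names. Of the myeloid names 2 of 3 were bright, with miR-223 highest (4.89 log2 units above background on average) and miR-142-3p at -0.21. Of the lymphoid names 5 of 7 were bright, with miR-181b-2 highest (4.24) and both miR-181a*-3p names at background (0.09 and 0.08). All 3 myeloid and 5 of the 7 lymphoid names had a negative difference between KO and WT, as did 281 of all 433 mature names. None of these list names passed the test. The stromal or endothelial names bear on the clusters because such cells make the miRNAs of the clusters too. The 17 stromal or endothelial names averaged between -0.36 (miR-145) and 1.14 log2 units (miR-126-5p) relative to background, and miR-143, a stromal marker, lay at -0.02. The highest after miR-126-5p were miR-126*-5p (0.84), miR-10b (0.46) and miR-100 (0.38). Of the 17, 6 had a positive and 11 a negative difference between KO and WT, with a median of -0.05 log2 units and 0 past the test, and the lowest was that of miR-126*-5p, -1.04 (SE 0.50, limma adjusted p = 0.902). The log2 of their summed intensity, with background not subtracted, was 18.55 to 19.44 in KO and 18.83 to 19.63 in WT mice.

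Erythroid miR-486 averaged 1.17 log2 units above background in KO and -0.21 in WT mice, a difference of 1.35 (SE 0.57, limma adjusted p = 0.902), while erythroid miR-144 and miR-451 lay at 0.02 and -0.19 over all mice. The log2 of the summed intensity of the erythroid names was 16.32 to 17.73 in KO and 15.94 to 16.88 in WT mice. The 5 names listed for megakaryocytes include 3 miR-126 names, which are on the stromal or endothelial list too. The 5 names had a median difference of -0.83, with 4 negative and 0 past the test. The log2 of their summed intensity was 16.55 to 17.96 in KO and 17.65 to 18.33 in WT mice. No list for stem cells was drawn up, and a name on a list need not be made by that cell type alone. Whether the signals of these lists came from the LSK cells themselves was not tested. Nor was the part of other cell types in the members' values.

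No member changed past the test between KO and WT cells. By limma 0 of the 6 mature and 0 of the 4 precursor names had an adjusted p under 0.05, against 0 of 433 mature names (0%) and 0 of 274 precursor names (0%) in all. At an unadjusted p under 0.05 the members again gave 0 in both tables, where all mature names gave 19 (4.39%) and all precursor names 7 (2.55%). Of the mature members 4 had a positive and 2 a negative log2 difference, with a median of 0.011, while the median of all mature names was -0.043 and that of the 93 bright ones -0.242. KO and WT values overlapped for each of the 10 member names, where 0.924% of all mature and 1.09% of all precursor names had groups that did not overlap. With 4 mice a group the standard errors of the mature members were 0.21 to 0.47 log2 units. They include the step in brightness between samples 1 and 2 and samples 3 and 4. With these sets as a block in limma, the differences could only stay the same, since each set holds KO and WT mice in equal number. The standard error was then 0.14 for miR-27a (0.25 without the block) and 0.29 for miR-24-3p (0.47). It was 0.38 for miR-23a (0.45) and 0.36 for miR-23b (0.40). The intervals below are from the fit without a block and show which sizes of change remain possible in it.

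Mature miR-23a (mmu-mir-23a), which opens the chromosome 8 cluster, was well above background on every array. Its intensity in units of 1000 was 489, 684, 239 and 171 in KO mice 1 to 4, against 239, 528, 350 and 221 in WT mice 1 to 4. The highest and the lowest of all 8 values were both from KO mice, and the groups overlapped. The mean was 18.38 ± 0.92 in KO and 18.26 ± 0.58 in WT (log2 intensity, SD, n = 4 each), a difference of 0.12 (SE 0.45, 95% interval -0.89 to 1.13, limma adjusted p = 1.0). The interval corresponds to between 0.541 and 2.18 times the WT level. Within samples 1 and 2 the difference was 0.70, and within samples 3 and 4 it was -0.46. Without KO 4 it was 0.45 and without KO 2 it was -0.21, so its direction depended on which mice were included.

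Mature miR-27a (mmu-mir-27a), the next hairpin of the same transcript and a miRNA known to target Runx1, varied least among the bright members. It measured 73.7, 103, 52.3 and 67.1 in KO mice, against 78.7, 89.5, 62.9 and 59.2 in WT mice. KO mice held both extremes again, with KO 2 highest and KO 3 lowest. The difference was 0.01 (SE 0.25, 95% interval -0.56 to 0.57, limma adjusted p = 1.0), or between 0.68 and 1.48 times the WT level. All 8 arrays stood 1.03 to 1.62 log2 units above background, so part of each value is background and a change of the miRNA would be read as smaller than it is.

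Mature miR-23b (mmu-mir-23b), the chromosome 13 counterpart of miR-23a, was as clearly above background. It measured 387, 510, 257 and 174 in KO mice and 294, 574, 482 and 216 in WT mice. KO 4 was the lowest and WT 2 the highest array, and the groups overlapped. The mean was 18.23 ± 0.68 in KO and 18.47 ± 0.65 in WT (log2 intensity, SD, n = 4 each), a difference of -0.25 (SE 0.40, 95% interval -1.14 to 0.64, limma adjusted p = 1.0). Within samples 1 and 2 it was 0.11 and within samples 3 and 4 it was -0.61.

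Mature miR-27b (mmu-mir-27b), which in other tissues restrains lipid and vascular genes, was not above background. Its intensity was 32.3, 46.9, 27.9 and 9.01 in KO mice, against 41.2, 47.9, 23.95 and 32.5 in WT mice. KO 4 lay at -1.43 log2 units relative to the background of its array, and the other 7 arrays lay between -0.10 and 0.54. The fitted difference of -0.50 (SE 0.46, limma adjusted p = 1.0) is one between signals at background. It was -0.02 without KO 4.

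Mature miR-24-3p (mmu-mir-24), which both clusters make and which is known to target cell-cycle and apoptosis genes, was read by 3 probes of 1 name. Their geometric mean was 148, 197, 90.7 and 44.6 in KO mice, against 110, 167, 85.5 and 56.4 in WT mice. Samples 1 and 2 were brighter than samples 3 and 4 in both groups, and KO 4 was the lowest. The name lay 0.87 log2 units above background in KO 4 and 1.13 in WT 4, against 2.56 in KO 2. Part of the low values is therefore background. The difference was 0.10 (SE 0.47, 95% interval -0.95 to 1.15, limma adjusted p = 1.0), with 0.33 in samples 1 and 2, -0.13 in samples 3 and 4 and 0.51 without KO 4. The 3 probes agreed on each array to within 0.00 to 0.32 log2 units and gave differences of 0.22, 0.08 and 0.01, a spread between probes that is well below the SD between mice of 0.94 in KO and 0.66 in WT.

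The 5′ strand of miR-24-1, whose hairpin lies in the chromosome 13 cluster, stayed at background on all arrays (-0.24 to -0.04 log2 units relative to it). It measured 31.0, 31.3, 24.2 and 23.0 in KO mice and 28.2, 32.1, 23.8 and 23.98 in WT mice, as geometric means of 3 probes, with the sets of brighter and dimmer arrays as the visible pattern. These probes carry the older name mir-189 as well, a synonym of Mir24-1 in RefSeq. A further mature probe named mir-189 alone, outside the rule for members, was also at background, between -0.40 and 0.05 log2 units. Of the miR-24 strands, then, the 3′ strand gave signal and the 5′ strand did not exceed background with these probes.

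**Figure D1:**
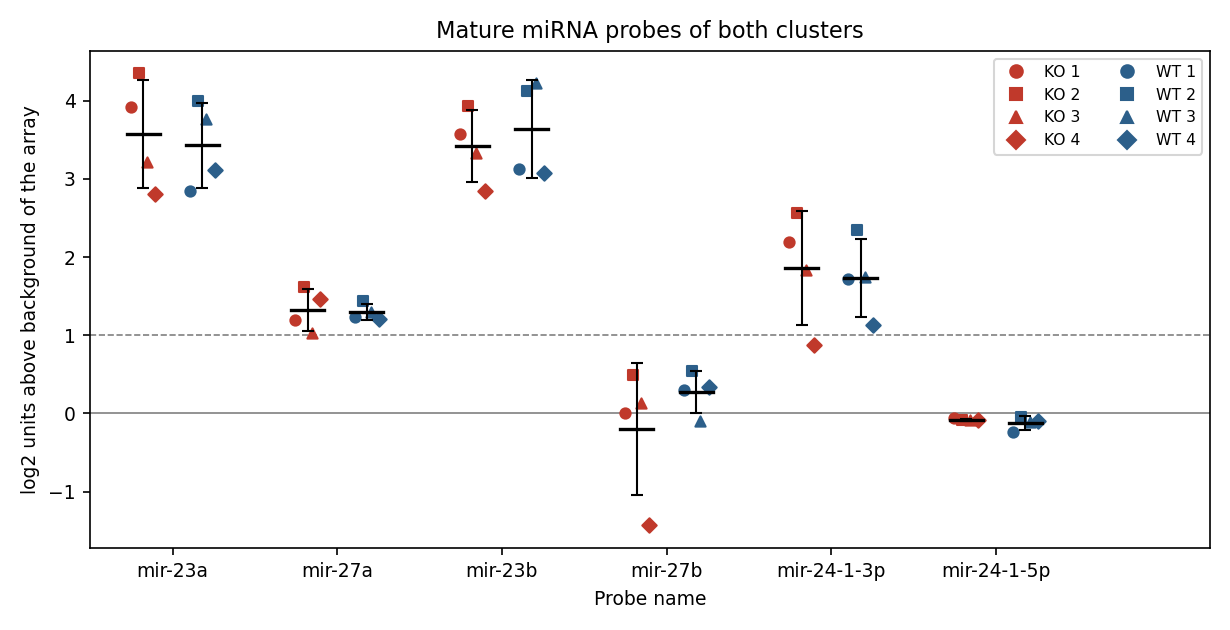
Log2 intensity above the background of its own array for the 6 mature names, 1 point per mouse (symbol gives the replicate number), with KO left of WT, the mean as a bar and 1 SD as whiskers (n = 4 each); the dashed line at 1 is the limit for a bright name. miR-23a and miR-23b lie 2.81 to 4.35 units above background, while miR-27b and miR-24-1-5p lie at it, and KO overlaps WT for every name.

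The precursor names analysed were mir-23a, mir-27a, mir-24-2 and a mir-24-2 probe marked as reading both forms, all of the chromosome 8 cluster. Among these the mir-24-2 precursor alone was bright. It measured 107, 121, 105 and 69.5 in KO mice, against 131, 118, 102 and 193 in WT mice. WT 4 was the highest and KO 4 the lowest array, with the other 6 close together between 102 and 131. The mean was 16.59 ± 0.35 in KO and 17.01 ± 0.39 in WT (log2 intensity, SD, n = 4 each), a difference of -0.42 (SE 0.25, 95% interval -0.97 to 0.13, unadjusted p = 0.119 and adjusted p = 0.999 by limma). It was -0.13 in samples 1 and 2 and -0.72 in samples 3 and 4, -0.26 without KO 4 and -0.24 without WT 4, and the median over all bright precursor names was -0.308.

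The other precursors were at background in both groups. The mir-23a precursor lay 0.02 to 0.15 log2 units above it, with 34.7, 36.0, 27.4 and 26.2 in KO mice and 33.9, 34.1, 27.1 and 28.6 in WT mice. The mir-27a precursor lay between -0.13 and 0.05 log2 units, with 29.6, 32.0, 25.0 and 22.6 in KO mice and 34.6, 32.6, 25.3 and 26.1 in WT mice. The mir-24-2 probe for both forms lay between -0.36 and 0.16 log2 units, with 34.05, 26.1, 25.2 and 24.1 in KO mice and 33.4, 37.0, 26.7 and 27.3 in WT mice. Within each group, samples 1 and 2 were brighter than samples 3 and 4 for all 3 probes. Their fitted differences were 0.00 (SE 0.19), -0.12 (SE 0.20) and -0.18 (SE 0.20), adjusted p = 0.999 by limma for each. These values therefore say little on the hairpins of miR-23a and miR-27a. For mir-24-2 the probes disagreed. The probe for both forms lay at background and the precursor probe 1.51 to 2.91 log2 units above it. Which of them reads the hairpin was not tested.

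**Figure D2:**
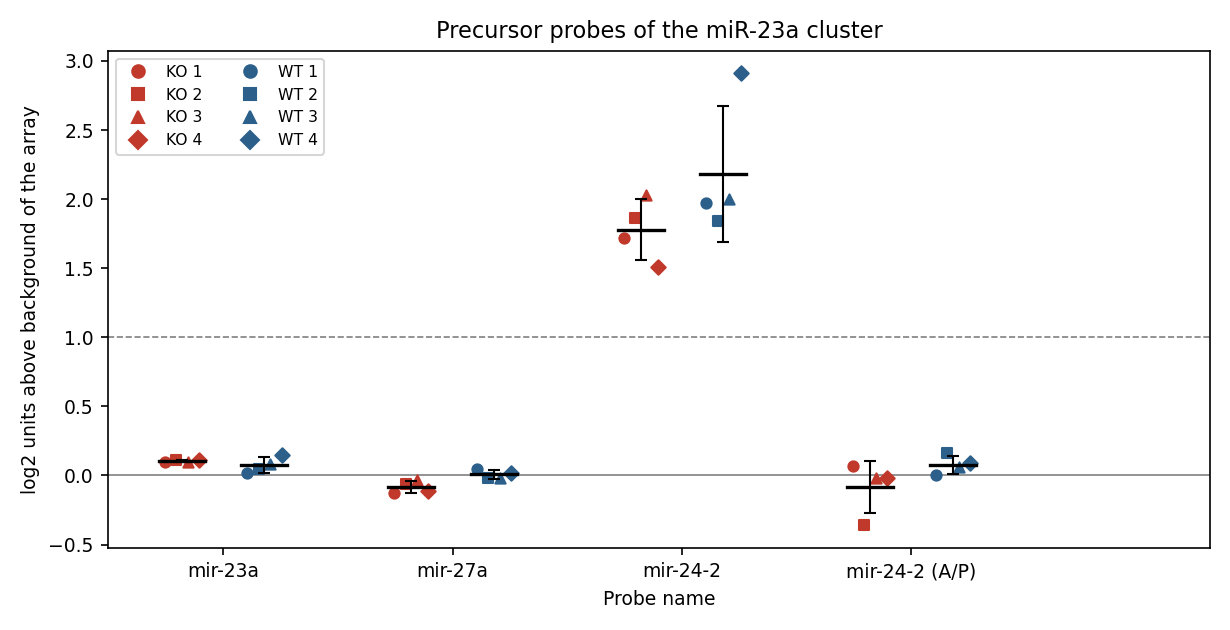
Log2 intensity above the background of its own array for the 4 precursor names, 1 point per mouse, with KO left of WT, the mean as a bar and 1 SD as whiskers (n = 4 each); the dashed line at 1 is the limit for a bright name. The mir-24-2 precursor lies 1.51 to 2.91 units above background, with WT 4 at the top, and the other 3 names lie at it.

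The balance of mature and precursor signal asks whether processing of a hairpin differed between genotypes. For miR-23a the mature minus precursor log2 difference was 3.82, 4.25, 3.12 and 2.70 in KO mice and 2.82, 3.96, 3.69 and 2.95 in WT mice, so the groups overlapped. It differed between KO and WT by 0.12 (SE 0.40, 95% interval -0.82 to 1.05, limma adjusted p = 0.950 over 263 matched names). For miR-27a the balance was 1.32, 1.69, 1.07 and 1.57 in KO mice and 1.19, 1.46, 1.31 and 1.18 in WT mice, with KO mice again at both ends. It differed by 0.13 (SE 0.16, 95% interval -0.25 to 0.50, limma adjusted p = 0.921), and by 0.03 without KO 2 and 0.43 after quantile normalization. Over all matched names 0 passed (0%), 17 had an unadjusted p under 0.05 (6.46%) and the median was -0.017. KO and WT balances did not overlap for 4.94% of all matched names. Both precursors were at background, which limits what these balances can show.

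For miR-24 the names of the forms differ in copy number, and the pair was set together after its values were seen. Mature miR-24-3p minus the mir-24-2 precursor was 0.47, 0.70, -0.20 and -0.64 in KO mice and -0.25, 0.50, -0.26 and -1.78 in WT mice. WT 4 was the lowest by more than 1 unit, and the groups overlapped. The balance differed by 0.53 (SE 0.57, 2-sided exact permutation p = 0.429, 0.643 adjusted over the 12 pairs compared here and below), and by 0.08 without WT 4. With 4 mice a group the smallest exact p is 0.0286, and at least 7 of the 12 pairs would have to reach it for an adjusted p under 0.05. The mature strand comes from both clusters and the precursor from chromosome 8 alone. The mir-24-2 probe for both forms was at background.

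The clusters were then compared through their paralogues on the same array, which removes the brightness that 2 probes share. miR-23a minus miR-23b was 0.34, 0.42, -0.11 and -0.03 in KO mice and -0.30, -0.12, -0.46 and 0.03 in WT mice (log2). KO 1 and KO 2 lay above all WT mice, while KO 3 and KO 4 lay below WT 4 and above the WT mean. The mean was 0.16 ± 0.26 in KO and -0.21 ± 0.21 in WT (SD, n = 4 each), a difference of 0.37 (SE 0.17) that did not pass, with a 2-sided exact permutation p of 0.114 and 0.343 adjusted over the 12 pairs. The difference was 0.59 in samples 1 and 2 and 0.15 in samples 3 and 4, and 0.28 to 0.46 when any 1 array was left out. It was positive in each of these comparisons.

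miR-27a minus miR-27b was 1.19, 1.14, 0.91 and 2.90 in KO mice and 0.93, 0.90, 1.39 and 0.86 in WT mice. KO 4, where miR-27b was below background, stood alone at the top, and the other 7 mice lay between 0.86 and 1.39. The difference of 0.51 (SE 0.48, 2-sided exact permutation p = 0.314, adjusted p = 0.588) was 0.06 without KO 4. It compares a bright probe with one at background.

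**Figure D3:**
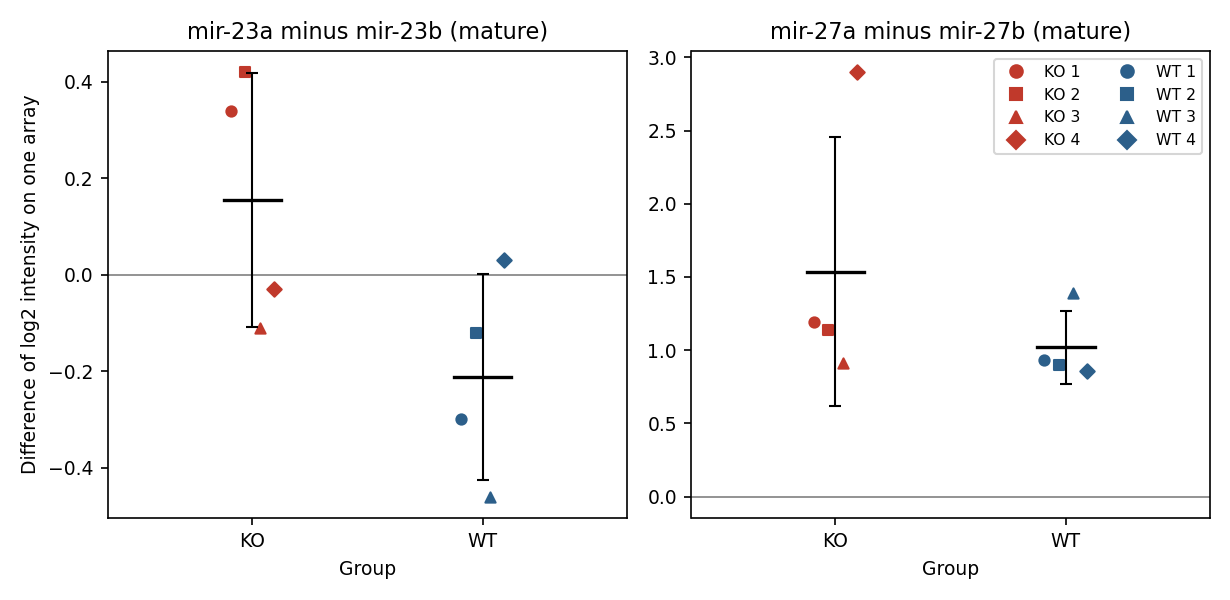
Difference of log2 intensity between paralogous mature probes on the same array, miR-23a minus miR-23b on the left and miR-27a minus miR-27b on the right, 1 point per mouse, with KO left of WT, the mean as a bar and 1 SD as whiskers (n = 4 each). The miR-23 difference averages 0.16 in KO and -0.21 in WT with overlapping mice, and the miR-27 difference is set by KO 4 at 2.90.

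No difference between members of 1 transcript passed the test. Between KO and WT cells miR-23a minus miR-27a differed by 0.11 (SE 0.40, 2-sided exact permutation p = 0.771), miR-23a minus miR-24-3p by 0.02 (SE 0.24, exact p = 0.914) and miR-27a minus miR-24-3p by -0.10 (SE 0.43, exact p = 0.83). For the chromosome 13 cluster miR-23b minus miR-24-3p differed by -0.35 (SE 0.26, exact p = 0.286), miR-23b minus miR-27b by 0.26 (SE 0.44, exact p = 0.600) and miR-27b minus miR-24-3p by -0.61 (SE 0.28, exact p = 0.0857). Leaving out WT 3 gave -0.15 for miR-23b minus miR-24-3p and 0.58 for miR-23b minus miR-27b. The second of these was 0.04 without KO 4, 0.08 without WT 1 and 0.05 without WT 4, and miR-27b minus miR-24-3p was -0.38 without WT 4. In both pairs that include it miR-27b is at background. All 6 adjusted p-values were 0.343 or more, and such p-values do not show that the members moved together.

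Among precursors, mir-23a minus mir-27a was 0.23, 0.17, 0.13 and 0.22 in KO mice and -0.03, 0.06, 0.09 and 0.13 in WT mice. The lowest KO value and the highest WT value were both 0.13 after rounding, and the groups just did not overlap. The difference of 0.12 (SE 0.04) had a 2-sided exact permutation p of 0.0286, the lowest p these group sizes allow, and an adjusted p of 0.343. Both hairpins were at background, so this is a difference between signals at background. The bright mir-24-2 precursor set against mir-23a and mir-27a gave 0.43 (SE 0.25, exact p = 0.0857) and 0.30 (SE 0.26, exact p = 0.343) for the other hairpin minus mir-24-2, values that were 0.21 and 0.06 without WT 4.

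**Figure D4:**
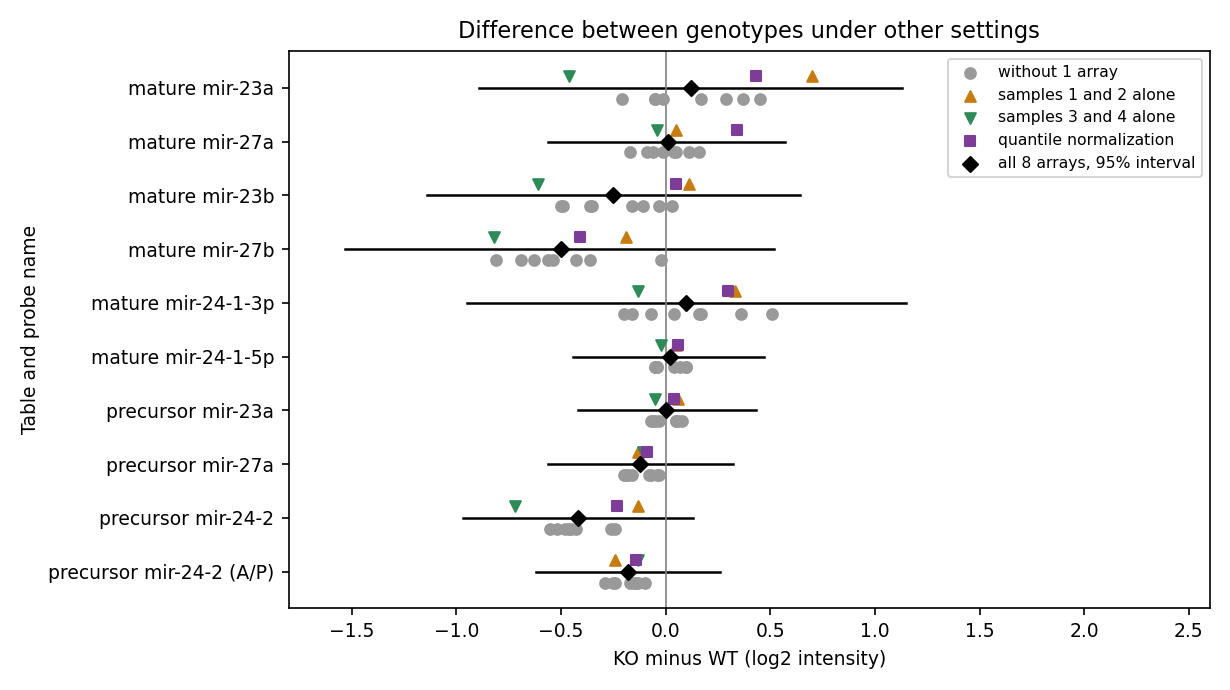
Difference between KO and WT in log2 intensity for all 10 member names over all 8 arrays (black diamond, line for the 95% interval), when each array is left out in turn (grey), within samples 1 and 2 and within samples 3 and 4 (triangles) and after quantile normalization (squares). Every interval crosses 0. miR-23a reads 0.70 in samples 1 and 2 and -0.46 in samples 3 and 4. The mir-24-2 precursor stays below 0 in all settings drawn. So do miR-27b, the mir-27a precursor and the mir-24-2 probe for both forms, all at background.

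Other bright mature names with the most similar profile over the 8 arrays were found by the root mean square difference of log2 values, after the array median and the own mean had been subtracted. Among 89 candidates, miR-92-1 (0.17), miR-155 (0.20) and miR-32 (0.21) lay nearest to miR-23a, where the median candidate was at 0.54. For miR-24-3p they were miR-30c-2 (0.14), miR-155 (0.15) and miR-17-5p (0.16), with a median candidate at 0.48. Near miR-23b were 2 probe names that differ only in case, mir-181a-5p (0.20) and miR-181a-5p (0.23), and miR-191 (0.24), with a median candidate at 0.44. Near miR-27a were miR-706, miR-342 and miR-207 (0.25 each), with a median candidate at 0.56.

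The same measure was taken between the members themselves. miR-23a was 0.28 from its paralogue miR-23b and 0.29 from miR-24-3p, with 4 of the 89 candidates nearer to miR-23a than either. Seen from miR-24-3p, 23 candidates were nearer than miR-23a and 31 nearer than miR-23b. Seen from miR-23b, 7 candidates were nearer than miR-23a and 26 nearer than miR-24-3p. miR-23a was 0.49 from its transcript neighbour miR-27a, with 36 candidates nearer. miR-27a was 0.46 to 0.52 from each of the other bright members, with 24 to 39 candidates nearer to it. The measure was not scaled for the size of the swings over arrays, and miR-27a lay only 1.03 to 1.62 log2 units above background.

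Other miRNAs known to act in the choice between myeloid and lymphoid fate were counted beside them, and none passed the test. Of 16 listed stems 14 were measured, by 20 mature names, of which 16 had a negative and 4 a positive difference, with a median of -0.33 (all bright mature names -0.242) and 0 at adjusted p under 0.05 by limma. Negative differences were about as common among the bright names as a whole (75 of 93), and 281 of all 433 mature names had one. miR-150, which acts in lymphoid maturation, had the lowest value, -0.85 (SE 0.26, adjusted p = 0.605). miR-17-3p had the highest, 0.29 (SE 0.24), at background. miR-181c, whose gene lies near the miR-23a cluster on chromosome 8, had -0.54 (SE 0.48), and miR-223, the main miRNA of granulocytes, had -0.27 (SE 0.67). Beside these the bright members of the clusters had differences between -0.25 and 0.12, with intervals that include the list's median.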

How the data were processed

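miRNAs were measured on 1-colour arrays, 1 per mouse (4 KO, 4 WT). Per the labels, the authors labelled 5 µg of total RNA with a biotinylated random octamer primer. The deposited values of the mature and the precursor table are intensity values on a linear scale, called normalized per the file headers (a template text); the sources used here state no scaling, background treatment or filter. The table of GEO's series matrix held the same values as the mature one. The number of arrays limits the precision.

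Values were transformed to log2(intensity + 1), and probes of 1 name were averaged. Background was the mode of an array's log2 values over both tables. Tests used R 4.3.3 and limma 3.58.1 within each table (lmFit, eBayes, no block, Benjamini-Hochberg over all names, threshold 0.05), and on mature minus precursor values for 263 names matched by name. Each of 12 probe pairs was compared by a 2-sided exact permutation test over 70 assignments. limma was tested on simulated data. Figures used Python 3.11.15 and matplotlib 3.10.9.

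Members, lists and tests were chosen with earlier results of these data known. All members were named, with the 3 most similar bright names each and the extremes of a lineage list. Alternatives were array scaling, pseudocount, a filter on dim names, single probes, a variance trend, blocks, scanner and omission of each array.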

Additional observations from a re-analysis of the deposited data

Results flagged for a closer look

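In 48 sets of 4 values (the members, balances and pairs in each group), 5 held a value set apart from the other 3 by a gap beyond Dixon's 95% critical value, measured against the range of the set. Chance gives about 1 in 20, and the sets share arrays and probes. KO 4 stood apart for miR-27a minus miR-27b (2.90) and for miR-27a minus miR-24-3p (0.59), and WT 3 for miR-27a minus miR-27b (1.39). WT 4 stood apart for the precursor pairs mir-23a minus mir-24-2 (-2.76) and mir-27a minus mir-24-2 (-2.89), through its high mir-24-2 precursor signal.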

How the results depend on the processing

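No member passed the threshold under any setting (lowest adjusted p = 0.582 by limma). No pair passed either, but a pair could pass only in the 4 alternatives that scale or offset all 8 arrays (lowest adjusted p = 0.343). Of these, centring each array on its median or on its background cancels in a pair of probes from the same table. For such pairs the centrings could only repeat the reported values and are no check. In the other 13, which leave out or block arrays, the smallest possible exact p was 0.0556 to 0.333, so they say nothing on the pairs' calls. The count of names past it stayed at 0 in each table under all 20 alternatives. Of 24 member and pair differences 12 kept their direction in every setting and 12 did not. In samples 3 and 4 alone the sign turned for mature miR-23a (-0.46), miR-27a (-0.04), miR-24-3p (-0.13) and miR-24-1-5p (-0.02), the mir-23a precursor (-0.05), the miR-23a balance (-0.41) and the pairs miR-23a minus miR-27a (-0.42), miR-23a minus miR-24-3p (-0.34) and miR-27a minus miR-24-3p (0.08). It turned for miR-23b after quantile normalization (0.05), in samples 1 and 2 alone (0.11) and on the arrays labelled with scanner 4000B alone (0.29), which hold 2 KO mice. On those arrays it also turned for miR-27b (0.14) and the mir-27a precursor (0.07), and miR-23a was 0.88 (unadjusted p = 0.0385, adjusted p = 0.633 by limma), miR-24-3p 0.81 (unadjusted p = 0.0667, adjusted p = 0.722) and the miR-23a balance 0.68. It turned for miR-27a minus miR-24-3p after quantile normalization (0.03) and for the brightest probe of miR-24-1-5p (-0.04).

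Leaving out each array in turn gave -0.21 to 0.45 for miR-23a, -0.17 to 0.16 for miR-27a, -0.50 to 0.03 for miR-23b, -0.20 to 0.51 for miR-24-3p, -0.05 to 0.10 for miR-24-1-5p, -0.07 to 0.08 for the mir-23a precursor and -0.14 to 0.37 for the miR-23a balance. For pairs it gave -0.06 to 0.42 for miR-23a minus miR-27a, -0.18 to 0.13 for miR-23a minus miR-24-3p, -0.47 to 0.07 for miR-27a minus miR-24-3p, -0.51 to -0.15 for miR-23b minus miR-24-3p, 0.04 to 0.58 for miR-23b minus miR-27b, -0.73 to -0.38 for miR-27b minus miR-24-3p and 0.08 to 0.84 for miR-24-3p minus the mir-24-2 precursor. The miR-27a balance was 0.03 to 0.24. Causes were not tested. Each replicate number has a KO and a WT array, so the replicate block could not change a difference (miR-23a 0.12, mir-24-2 precursor -0.42). It could change only standard errors and p-values, and no call by limma changed. At an unadjusted p under 0.05 limma gave 8 (bright names only) to 48 (replicate block) mature names, against 19 as reported, 0 (bright names only) to 20 (samples 1 and 2 alone) precursor names, against 7, and 6 (bright names only) to 29 (replicate block) balances, against 17. Deviations from the group means of same-numbered KO and WT arrays correlated by 0.10, 0.35, 0.09 and 0.33 across mature names, and KO 1 and KO 3 correlated best with another number, so the numbers were not taken as pairs.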
